A study of Schizosaccharomyces pombe with 23 samples.

Results

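This account compares 2 deletions in fission yeast, *rpn10Δ* and *nup132Δ*, by where DNA polymerase δ (Pol δ) copied each strand of the genome. The libraries were chosen by their labels as those of Pol δ strains with an RFB ON genotype that lack either gene, which gave 7 of the 23 libraries of the series, 3 from *rpn10Δ* (KK1868, KK1869 and KK1581) and 4 from *nup132Δ* (KK1901, KK1902, KK1518 and KK1517). Each name is a strain number, and 1 library was deposited per strain. Every strain carried the *RTS1* replication fork barrier (RFB) on chromosome II (Rura-ChrII RTS1::phleo), the Pol δ mutation *cdc6-L591G*, *rnh201-RED:Kan* and the markers *ura4-D18*, *ade6-704* and *leu1-32*, and was grown at 30°C in rich medium to log phase. The label of RFB ON is *Nat:ADH1:rtf1*, in which the *adh1* promoter drives Rtf1, the protein that binds *RTS1* and arrests forks. KK1868, KK1869, KK1901 and KK1902 have the deletion marked with hygromycin resistance, and no marker is named for KK1581, KK1518 and KK1517. WT Pol δ libraries of RFB ON (KK1471) and RFB OFF (KK1467, *rtf1::Nat*), 1 of each, and 1 *nup132Δ* RFB OFF Pol δ library (KK1515) served as landmarks only.

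Rpn10 is a ubiquitin receptor of the proteasome, the machine that degrades ubiquitylated proteins. Nup132 is a scaffold nucleoporin of the Y complex of the nuclear pore. Ribonucleotides left by the mutant Pol δ mark the DNA it made, and polymerase usage sequencing (Pu-Seq) counts them per strand. Pol δ normally makes the lagging strand, so a fork that moves rightward leaves Pol δ on the Crick strand and a leftward fork leaves it on the Watson strand. The Watson share, the counts on the Watson strand divided by those on both, is therefore low where rightward forks prevail and high where leftward forks do, and it falls from left to right across a replication origin. A fork restarted by recombination at *RTS1* copies both strands with Pol δ. In Pol δ libraries alone, a higher Watson share downstream of the barrier can come from restarted forks or from leftward forks arriving from the other side, and these cannot be told apart by the share.

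The 7 libraries held 5396348 (KK1517) to 13300719 (KK1868) counts. The *rpn10* gene (SPAC637.10C, chromosome I, 4557551 to 4558696) had 1, 0 and 0 counts in KK1868, KK1869 and KK1581, where 0 counts allow up to 0.426% and 0.548% of the WT RFB ON level relative to flanking bins. In the *nup132Δ* libraries it stood at 96.9% to 112% of that level. The *nup132* gene stood at 1.52% to 1.89% in the *nup132Δ* libraries. The *rtf1* gene (SPAC22F8.07C) did not match the label of 1 library. It stood at 96.1% in KK1868 and 108% in KK1869 but at 7.85% in KK1581, near the 7.31% of WT RFB OFF, so that KK1581 is called the *rpn10Δ* library without *rtf1* counts. In the *nup132Δ* libraries *rtf1* stood at 105% to 120%. Results are therefore given with and without KK1581. With 3 against 4 libraries an exact permutation test has 35 arrangements and a smallest p of 0.0286, and without KK1581 it has 15 and a smallest p of 0.0667, which cannot pass 0.05. Nothing in the labels says whether libraries of a group came from separate cultures beyond their strain numbers, so p-values measure only the spread between these libraries, which may be technical.

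The strand asymmetry of Pol δ differed widely between libraries of the same deletion. For each library a line was fitted to its Watson share against that of WT RFB OFF over 4155 windows of 3 kb that lie over 50 kb from the barrier, and the slope measures the asymmetry. The slope was 0.696, 0.736 and 0.848 in KK1868, KK1869 and KK1581. It was 0.601, 0.699, 0.739 and 0.839 in KK1901, KK1902, KK1518 and KK1517. All 7 lay below WT RFB ON (1.03), and the deletions overlapped. The mean was 0.760 ± 0.0790 (SD, n = 3) in *rpn10Δ* and 0.719 ± 0.0984 (SD, n = 4) in *nup132Δ*, a difference of 0.0410 (exact two-sided permutation test, p = 0.60) that became -0.00314 without KK1581 (p = 0.733, exact permutation). Where WT RFB OFF had under 0.25 of its counts on Watson (622 windows, mean 0.182), the libraries had a mean share of 0.230 to 0.306. Where it had 0.75 or more (615 windows, mean 0.818), they had 0.693 to 0.769. Both extremes were drawn towards 0.5 in every library. To compare places rather than this overall flattening, each library's share was placed on the scale of WT RFB OFF through its own line. This relative share equals the WT share where a library follows its line, and can pass 0 or 1.

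At the barrier the libraries of each deletion did not behave alike. In the first 3 kb downstream of the barrier (placed at 852.6 kb of chromosome II by the step between WT RFB ON and OFF), WT RFB OFF had a Watson share of 0.0983 and WT RFB ON 0.449. KK1868 had 0.518 (95% Wilson interval 0.505 to 0.531, 5802 counts) and KK1869 0.459 (0.446 to 0.471, 6205 counts). KK1581, without *rtf1* counts, had 0.137 (0.125 to 0.151, 2586 counts). Both *rpn10Δ* libraries with *rtf1* counts were thus at or above WT RFB ON, and KK1581 was near WT RFB OFF. Of the *nup132Δ* libraries, KK1901 had 0.547 (0.534 to 0.559, 5822 counts) and KK1517 0.597 (0.572 to 0.621, 1511 counts). KK1902 had 0.318 (0.303 to 0.333, 3551 counts) and KK1518 0.257 (0.242 to 0.273, 3156 counts). The 4 *nup132Δ* libraries lay on both sides of KK1868 and KK1869 and all above KK1581, and each marker class of *nup132Δ* held 1 library above WT RFB ON and 1 below it. The intervals cover counting error only, and the spread between libraries of 1 deletion was several times wider than any of them.

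The excess of relative share over WT RFB OFF in the same 3 kb was 0.428, 0.346 and -0.0251 in KK1868, KK1869 and KK1581. It was 0.481, 0.141, 0.0736 and 0.517 in KK1901, KK1902, KK1518 and KK1517, and 0.352 in WT RFB ON. The deletions overlapped on this scale too. The difference of means was -0.0534 with all libraries (p = 0.80) and 0.0841 without KK1581 (p = 0.667, both exact two-sided permutation). For the share as counted it was -0.0584 (p = 0.686) and, without KK1581, 0.0586 (p = 0.733, both exact permutation). The sign thus turned without KK1581, and for the relative excess also without KK1901 (0.00582) or without KK1517 (0.0179). Neither deletion could be placed above the other next to the barrier. None of the 10 windows from 6 kb upstream to 21 kb downstream passed the test across windows described below (lowest adjusted p 0.346 with edgeR and 0.232 with limma, and 0.332 and 0.191 without KK1581).

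**Figure D1:**
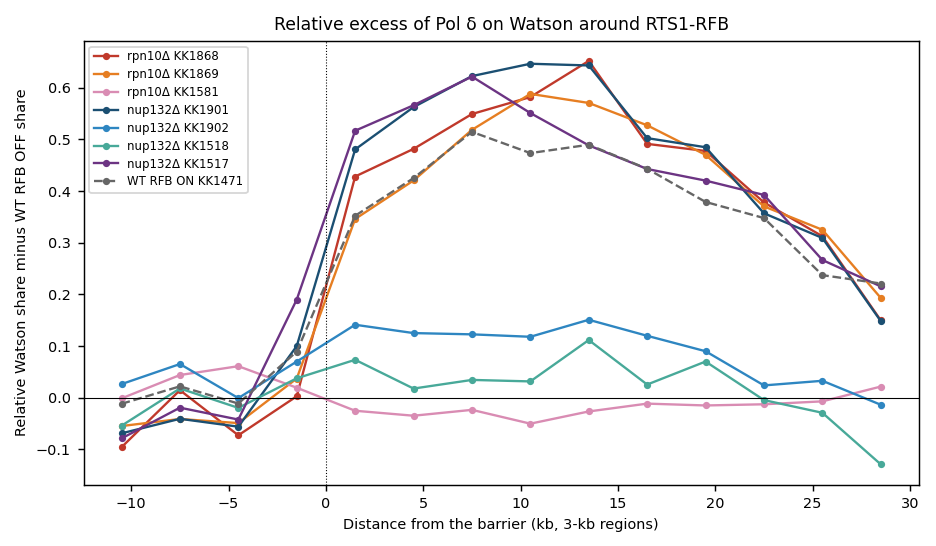
Relative Watson share of Pol δ minus the WT RFB OFF share (y axis, no unit) in 3-kb regions by distance from the barrier (x axis, kb), 1 line per library, WT RFB ON dashed. KK1868, KK1869, KK1901 and KK1517 run close to WT RFB ON or above it in the first 15 kb, KK1902 and KK1518 stay at 0.151 or below, and KK1581 stays near 0.

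The excess did not decay over the first 12 kb in most libraries that had one. From 9 to 12 kb downstream it was 0.582 in KK1868, 0.588 in KK1869, 0.647 in KK1901, 0.118 in KK1902 and 0.551 in KK1517, against 0.474 in WT RFB ON. It was -0.0501 in KK1581 and 0.0317 in KK1518 at this distance, and these 2 were given no ratio because their excess in the first 3 kb was under 0.1. Relative to the first 3 kb, the excess at 9 to 12 kb was 1.36 and 1.7 times as large in KK1868 and KK1869. The ratio was 1.34, 0.835 and 1.07 in KK1901, KK1902 and KK1517, and 1.34 in WT RFB ON. Both *rpn10Δ* ratios lay above the 3 of *nup132Δ*, by little in the case of KK1901. The difference of 0.447 had p = 0.20 (exact two-sided permutation of 2 against 3, smallest possible p 0.10) and was 0.277 without KK1869. With the excess taken at 6 to 9 kb instead, the deletions overlapped and the difference was 0.268 (p = 0.30, exact permutation). By 27 to 30 kb the excess was 0.15 and 0.193 in KK1868 and KK1869 and 0.148 and 0.216 in KK1901 and KK1517. At 9 to 12 kb the share as counted was above 0.5 in KK1868 (0.708), KK1869 (0.724), KK1901 (0.718), KK1517 (0.725) and WT RFB ON (0.697). It was 0.384 in KK1902, 0.314 in KK1518 and 0.217 in KK1581. The part of leftward forks in the excess was not tested.

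Upstream of the barrier no difference passed a test. In the window from 849 to 852 kb of chromosome II the relative share was 0.115 ± 0.0120 (SD, n = 3) in *rpn10Δ* and 0.173 ± 0.00723 (SD, n = 4) in *nup132Δ*, and the deletions did not overlap, while their shares as counted did. This window had an adjusted p of 0.346 with edgeR and 0.232 with limma. In the window to its left, from 846 to 849 kb, the means lay the other way, at 0.121 in *rpn10Δ* and 0.0945 in *nup132Δ* (adjusted p 0.775, limma). Over the 6 kb upstream the excess was -0.0314, -0.00460 and 0.0415 in KK1868, KK1869 and KK1581, and 0.0357, 0.0359, 0.00978 and 0.0849 in KK1901, KK1902, KK1518 and KK1517. The difference of -0.0397 had p = 0.20 and, without KK1581, -0.0596 had p = 0.0667 (exact two-sided permutation), the smallest p this design allows. Without KK1581 the 2 *rpn10Δ* libraries lay below all 4 *nup132Δ* libraries. With the barrier placed 0.6 kb further left, a setting chosen after seeing the data, the difference over all libraries was -0.0174 (p = 0.514, exact permutation).

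The amount of Pol δ product, which the share does not use, gave a further view of the barrier. Counts on both strands were divided by the library total and by the same quantity in WT RFB OFF, a comparison chosen after seeing the data. From 9 to 3 kb upstream the ratio was 1.5 in KK1868 and 1.52 in KK1869 but 0.963 in KK1581. It was 1.05, 0.98, 0.937 and 0.949 in KK1901, KK1902, KK1518 and KK1517, and 1.17 in WT RFB ON. The 2 *rpn10Δ* libraries with *rtf1* counts thus had more Pol δ product from 9 to 3 kb upstream than any *nup132Δ* library, and the third did not. For scale, 98% of windows away from the barrier had ratios between 0.769 and 1.25 in KK1868 and between 0.823 and 1.17 in KK1869. On the log2 scale the difference was 0.41 with KK1581 (p = 0.0857) and 0.63 without it (p = 0.0667, exact two-sided permutation, the smallest possible). Among the marked deletions alone it was 0.58, with 2 libraries of each. This region leaves out the 3 kb just upstream of the barrier, where KK1901 came close to the *rpn10Δ* libraries. There the ratio was 1.88, 1.75 and 0.976 in KK1868, KK1869 and KK1581. It was 1.73, 1.11, 1.06 and 1.14 in KK1901, KK1902, KK1518 and KK1517, and 1.44 in WT RFB ON.

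In the first 3 kb downstream the ratio was 1.91, 2.15 and 1.14 in KK1868, KK1869 and KK1581. It was 2.12, 1.17, 1.14 and 1.23 in KK1901, KK1902, KK1518 and KK1517, and 1.68 in WT RFB ON. KK1901 lay with the *rpn10Δ* libraries and the other 3 *nup132Δ* libraries lay near KK1581. From 3 to 15 kb downstream the ratio was 1.49, 1.67 and 1.02 in KK1868, KK1869 and KK1581, and 1.49, 1.03, 1.04 and 1.05 in KK1901, KK1902, KK1518 and KK1517. The log2 differences were 0.29 (p = 0.40) next to the barrier and 0.26 (p = 0.343) from 3 to 15 kb, and 0.57 (p = 0.267) and 0.47 (p = 0.0667) without KK1581, all by exact two-sided permutation.

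KK1517 and KK1901 had a like Watson share next to the barrier but different amounts of product. In the first 3 kb the Watson counts of KK1901 were 11.8 times and those of KK1517 7.46 times the WT RFB OFF level, while the Crick counts were 1.06 and 0.549 times that level. In KK1868 and KK1869 the Watson counts were 10.08 and 10.04 times and the Crick counts 1.02 and 1.29 times the WT RFB OFF level. From 3 to 15 kb, Crick counts stood at 0.596 and 0.711 in KK1868 and KK1869, at 0.578 in KK1901 and at 0.386 in KK1517. KK1517 thus reached its high share with less on Crick than any other library. What lies behind this difference between libraries was not tested. KK1517 was also the shallowest library.

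**Figure D2:**
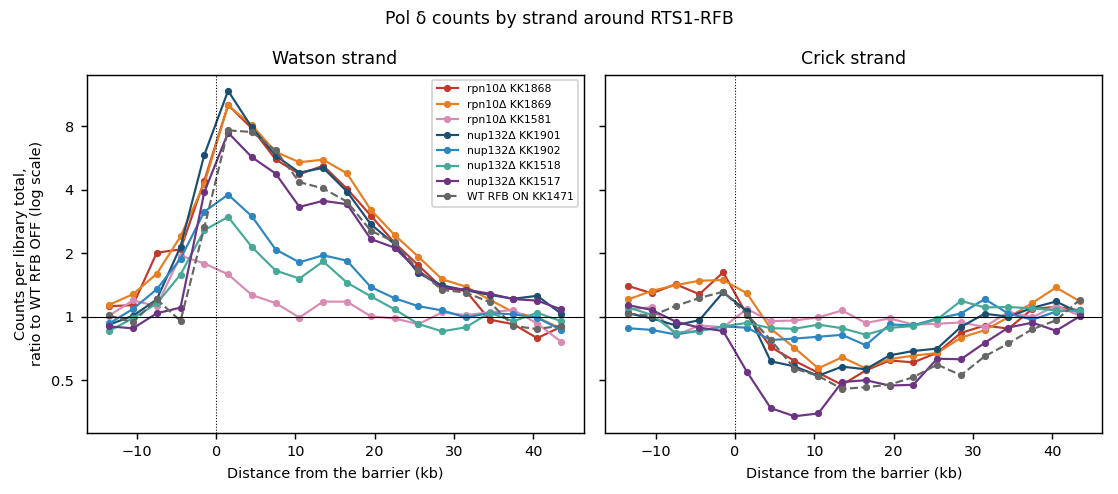
Pol δ counts per library total relative to WT RFB OFF (y axis, log scale) on Watson (left) and Crick (right), by distance from the barrier (x axis, kb) in 3-kb regions, 1 line per library and WT RFB ON dashed. Upstream Crick counts of KK1868 and KK1869 lie above 1, and KK1517 has the lowest Crick counts in the first 12 kb downstream.

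Away from the barrier the profiles of both deletions were much alike. Over the 4155 windows the Watson shares of pairs of libraries had a Pearson correlation of 0.937 to 0.986, whether the pair shared the deletion or not. These windows share base composition and origins, so the values are descriptive. The root mean square difference of relative share averaged 0.0655 between deletions and 0.0575 within them. The gap of 0.00805 had p = 0.0857 (exact permutation, one-sided) and, without KK1581, 0.0108 had p = 0.0667. KK1902 and KK1518, which carry the deletion with and without a named marker, were the closest pair (0.0369), ahead of KK1868 and KK1869 (0.0417). KK1581 lay closest to KK1869 (0.0494), and it was closer to KK1517 (0.0527), KK1902 (0.0550) and KK1518 (0.0634) of the other deletion than to KK1868 (0.0662) of its own.

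Single places did differ. Each of 4189 windows with at least 100 counts in every library was tested in 2 ways. edgeR's quasi-likelihood test compared the Watson to Crick ratio as counted between the deletions, and limma compared the relative share, both with Benjamini-Hochberg adjustment at 0.05. edgeR called 11 windows (0.263% of those tested), 6 higher (0.143%) and 5 lower (0.119%) in *rpn10Δ*. limma called 35 (0.836%), 19 higher (0.454%) and 16 lower (0.382%), and included all 11. In all 35 the relative shares of the deletions did not overlap, which was so in 13.3% of all windows (10.8% for the share as counted). The 35 windows fell into 21 places when those under 30 kb apart were joined, 14 of them single windows. Their differences in relative share ran from 0.105 to 0.368 in size, with a median of 0.158 against 0.0272 over all tested windows. The windows were called on these same values, so the lack of overlap and the larger differences follow from the selection. None of the 35 windows lay within 100 kb of a chromosome end (4.87% of all windows did). On chromosome II lay 18 (51.4% against 36.1%) and on chromosome III 2 (5.71% against 19.5%). Adjoining windows count singly here, and 7 of those on chromosome II belong to 1 place, from 3384 to 3417 kb. In 31 of the 35 the WT RFB OFF share lay between 0.25 and 0.75 (88.6% against 70.2% of all windows), where forks of both directions occur.

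The number of calls moved with single libraries. Without KK1581 edgeR called 11 windows (0.263%), 9 of the first 11, and limma 31 (0.74%), 20 of the first 35. Leaving out KK1868, KK1869, KK1901, KK1902 or KK1518 reduced the edgeR calls to 1, 1, 2, 1 and 1, and leaving out KK1517 raised them to 17. The limma calls became 7, 2, 11, 13 and 25, and 95 without KK1517. Among the Hygro-marked deletions edgeR called 54 windows, which included the first 11, and limma 27, which shared 20 of the first 35. Among those with no marker named, 1 library against 2, edgeR called 1 window and limma none (43 and 29 at an unadjusted p under 0.05). The window of chromosome II from 3411 to 3414 kb was called by both tests with each of the 7 libraries left out in turn.

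**Figure D3:**
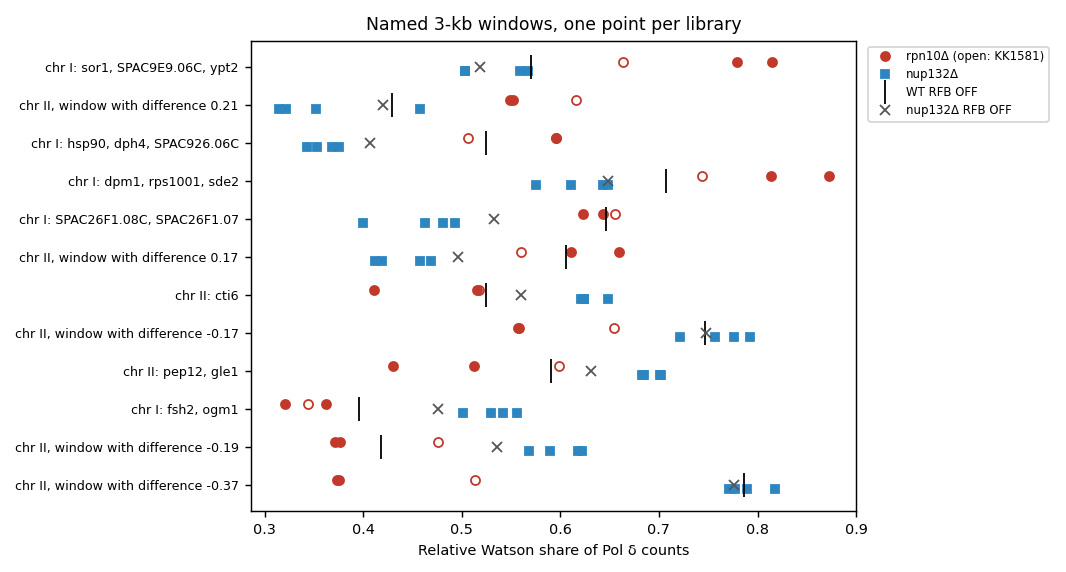
Relative Watson share (x axis, no unit) in the 12 windows named by limma's differences, up to 6 in each direction, ordered by the difference *rpn10Δ* minus *nup132Δ*, 1 point per library. In the lowest row, chromosome II at 3411 to 3414 kb, the *rpn10Δ* libraries lie at 0.373 to 0.513 and WT RFB OFF (bar) lies among the *nup132Δ* libraries, while in the row of hsp90 WT RFB OFF lies with *rpn10Δ*.

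That window also had the largest difference. Positions on chromosome II right of the barrier are those of the deposited bins, which run about 1.9 kb off the reference assembly, and no genes are named there. The relative share was 0.375, 0.373 and 0.513 in KK1868, KK1869 and KK1581. It was 0.789, 0.771, 0.818 and 0.778 in KK1901, KK1902, KK1518 and KK1517. WT RFB OFF (0.786), WT RFB ON (0.788) and *nup132Δ* RFB OFF (0.776) lay with the *nup132Δ* libraries. In shares as counted the means were 0.443 ± 0.0586 (SD, n = 3) in *rpn10Δ* and 0.707 ± 0.0313 (SD, n = 4) in *nup132Δ*, from 1300 to 4061 counts per library. The relative difference was -0.368 with a standard error of 0.0335 (adjusted p 0.00422 with edgeR, 0.000483 with limma and 2.86e-05 with limma without KK1581). KK1581, without *rtf1* counts, was shifted in the same direction as the other 2 libraries.

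The neighbourhood of this window changed in both directions. Of 7 called windows between 3384 and 3417 kb, 5 were higher and 2 lower in *rpn10Δ*. Without KK1581 the higher windows that start at 3390, 3393 and 3405 kb were no longer called (adjusted p 0.0501, 0.0501 and 0.0515, limma). To the left, at 3387 to 3390 kb, the relative share was 0.705, 0.722 and 0.724 in *rpn10Δ* and 0.524 to 0.559 in *nup132Δ*. To the right, at 3414 to 3417 kb, it was 0.656, 0.665 and 0.660 in *rpn10Δ* and 0.846 to 0.899 in *nup132Δ*. From 3408 to 3411 kb the deletions overlapped (means 0.561 and 0.596, adjusted p 0.611 with limma). In *rpn10Δ* the mean share thus fell from 0.703 at 3405 kb to 0.421 at 3411 kb and rose again to 0.821 at 3417 kb. In *nup132Δ* it rose from 0.545 to 0.789 and 0.926 over the same windows, with no fall. The fall was seen in the 3 *rpn10Δ* libraries, and WT RFB OFF rose from 0.581 to 0.786. A fall from left to right also occurs across origins, but whether an origin lies here was not tested.

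**Figure D4:**
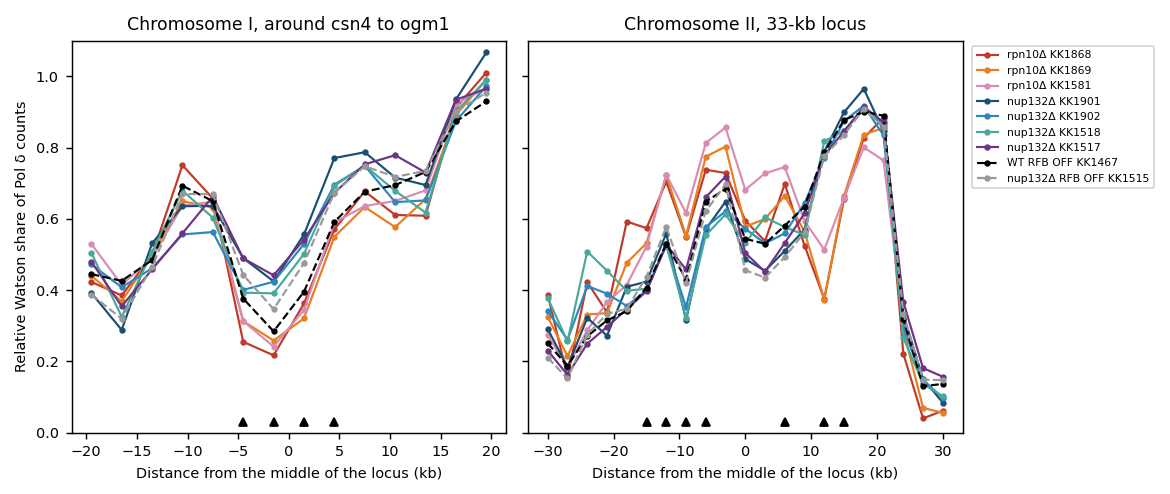
Relative Watson share (y axis, no unit) by distance from the middle of 2 loci (x axis, kb), 1 line per library, WT RFB OFF and *nup132Δ* RFB OFF dashed, with triangles under windows called by limma. On the left the 4 *nup132Δ* libraries lie above WT RFB OFF in the called windows, and on the right the 3 *rpn10Δ* libraries dip to 0.373 to 0.513 where the others lie near 0.8.

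At the second locus, 4 adjoining windows of chromosome I from 1158 to 1170 kb were lower in *rpn10Δ*. WT RFB OFF lay nearer to the *rpn10Δ* mean in 3 of them. In the first, from 1158 to 1161 kb, it had 0.376, nearer to the *nup132Δ* mean (0.443) than to that of *rpn10Δ* (0.293). They hold *pso2* (a nuclease of crosslink repair), *csn4* (a subunit of the COP9 signalosome), *rps2201* (a small-subunit ribosomal protein), *rpc11* (a subunit of RNA polymerase III), *fsh2* and *ogm1* (a protein O-mannosyltransferase). In the window of *fsh2* and *ogm1* (1164 to 1167 kb) the relative share was 0.363, 0.320 and 0.345 in KK1868, KK1869 and KK1581. It was 0.556, 0.529, 0.501 and 0.542 in KK1901, KK1902, KK1518 and KK1517. WT RFB OFF and WT RFB ON had 0.395 and 0.377, nearer to *rpn10Δ*, and *nup132Δ* RFB OFF had 0.476. The difference was -0.190 with a standard error of 0.0234 (adjusted p 0.0185 with edgeR, 0.00386 with limma and 0.0103 with limma without KK1581). With limma this call was lost only when KK1869 was left out, and with edgeR it was kept only without KK1581 or without KK1517. Of the 4 windows, those that start at 1158 and 1167 kb were not called without KK1581 (adjusted p 0.0657 and 0.0515, limma).

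Among windows higher in *rpn10Δ*, that of *sor1*, SPAC9E9.06C and *ypt2* (chromosome I, 4446 to 4449 kb) had the largest difference, and *ypt2* encodes a Rab GTPase of the secretory pathway. The relative share was 0.815, 0.779 and 0.664 in KK1868, KK1869 and KK1581. It was 0.567, 0.559, 0.503 and 0.503 in KK1901, KK1902, KK1518 and KK1517, with WT RFB OFF at 0.570 and WT RFB ON at 0.633. The difference was 0.219 with a standard error of 0.0348 (adjusted p 0.0171, limma). All 3 *rpn10Δ* libraries lay above both WT libraries here, KK1581 by little over WT RFB ON, and WT RFB OFF lay just above the highest *nup132Δ* library.

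The window of *hsp90* (the Hsp90 chaperone), *dph4* (a J-domain protein of diphthamide synthesis) and SPAC926.06C (chromosome I, 3891 to 3894 kb) behaved the other way. The relative share was 0.596, 0.595 and 0.506 in *rpn10Δ* and 0.343, 0.369, 0.353 and 0.375 in *nup132Δ*. WT RFB OFF had 0.525, within the *rpn10Δ* values, and *nup132Δ* RFB OFF had 0.407. The difference was 0.205 with a standard error of 0.0270 (adjusted p 0.00410, limma). The next window, with *dlc2*, was also called.

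The remaining named windows repeated these forms, and limma called all of them (adjusted p 0.00985 to 0.0374). At *dpm1* (a subunit of dolichol phosphate mannose synthase), *rps1001* and *sde2* (chromosome I, 3018 to 3021 kb) the relative share was 0.743 to 0.872 in *rpn10Δ* and 0.575 to 0.648 in *nup132Δ*, with WT RFB OFF at 0.707 between them. At SPAC26F1.08C and SPAC26F1.07 (chromosome I, 5169 to 5172 kb) it was 0.623 to 0.655 against 0.40 to 0.493, with WT RFB OFF at 0.646. Lower in *rpn10Δ* were the windows of *pep12* (a SNARE of vacuolar traffic) and *gle1* (an mRNA export factor at the nuclear pore), at 0.430 to 0.598 against 0.682 to 0.702, and of *cti6*, at 0.411 to 0.517 against 0.621 to 0.648. On chromosome II from 1257 to 1260 kb the relative share was 0.371 to 0.476 against 0.568 to 0.622, with WT RFB OFF at 0.418 on the *rpn10Δ* side. From 4131 to 4134 kb it was 0.557 to 0.655 against 0.721 to 0.793, with WT RFB OFF at 0.747 on the *nup132Δ* side. From 1962 to 1965 kb it was 0.560 to 0.660 against 0.412 to 0.469, with WT RFB OFF at 0.605. From 3390 to 3393 kb, within the large locus, it was 0.549 to 0.616 against 0.315 to 0.458. edgeR did not call the windows of *gle1* (adjusted p 0.147) and *cti6* (0.209), or those at 4131 kb (0.147) and 1962 kb (0.103). Without KK1581 edgeR did call those of *gle1* (adjusted p 0.0310) and at 4131 kb (0.0350). It still did not call those of *cti6* (0.199) and at 1962 kb (0.0927). The limma calls at *gle1* and *cti6* were kept in 2 of 7 settings with 1 library left out. Without KK1581 the window at 3390 kb passed neither test (adjusted p 0.101, edgeR, and 0.0501, limma). That of SPAC26F1.08C then missed the threshold with edgeR (adjusted p 0.0960) but not with limma (0.0310).

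Which deletion stood away from WT was counted over the 35 windows. WT RFB OFF lay nearer to the *rpn10Δ* mean in 20 and nearer to the *nup132Δ* mean in 15, and WT RFB ON in 22 and 13. Over all tested windows WT RFB OFF was nearer to *nup132Δ* in 44.3%, close to the 42.9% among the called windows. The *nup132Δ* RFB OFF library, which no test used, was nearer to the *nup132Δ* mean in 32 of 35 (91.4%, against 50.3% of all windows). It lay on the *nup132Δ* side of WT RFB OFF in 30 of 35 (85.7%, against 59.3%). These counts are over windows, several of them adjoining, and rest on 1 library.

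Windows that hold the altered genes were examined on their own. The window inside *nup132* (chromosome I, 2778 to 2781 kb) had as few as 26 counts in the *nup132Δ* libraries and was not tested. The windows on either side had adjusted p of 0.726 and 0.50 with limma. The window of *rpn10* had a relative share of 0.314 ± 0.0218 (SD, n = 3) in *rpn10Δ* and 0.332 ± 0.0347 (SD, n = 4) in *nup132Δ* (adjusted p 0.825, limma). The window beside it, of *rpm2* and *mst1* (a histone acetyltransferase), was called by limma, with 0.365 to 0.392 in *rpn10Δ* and 0.266 to 0.287 in *nup132Δ*. WT RFB OFF had 0.363 there, and the call did not hold without KK1581 (adjusted p 0.0773, limma). The window of *rtf1* had 0.598 ± 0.135 (SD, n = 3) and 0.648 ± 0.0536 (SD, n = 4) with an adjusted p of 0.716 (limma). KK1868 and KK1869 had 0.694 and 0.656 there and KK1581 had 0.443, against 0.489 in WT RFB OFF and 0.695 in WT RFB ON. The difference of -0.0498 became 0.0276 without KK1581 (adjusted p 0.729, limma).

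Origins were located in WT RFB OFF as falls of the Watson share of at least 0.2 between the 3 windows to the left and the 3 to the right, which gave 272. The relative fall, averaged over them, was 0.447, 0.455 and 0.436 in KK1868, KK1869 and KK1581. It was 0.424, 0.441, 0.432 and 0.435 in KK1901, KK1902, KK1518 and KK1517. It was 0.447 in WT RFB OFF and 0.454 in WT RFB ON. KK1868 and KK1869 lay above all *nup132Δ* libraries and KK1581 lay among them. The difference of 0.0129 had p = 0.114 and, without KK1581, 0.0178 had p = 0.0667 (exact two-sided permutation). It amounts to a small part of the mean fall.

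**Figure D5:**
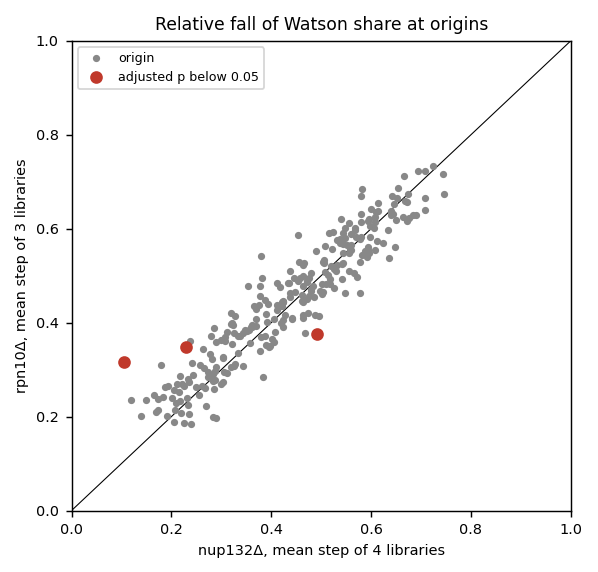
Mean relative fall of the Watson share at each of 272 origins (both axes, no unit) in *nup132Δ* (x axis, 4 libraries) and *rpn10Δ* (y axis, 3 libraries), with the line of equality. Most origins lie along the line, and the 3 called ones (red) include 2 above it and 1 below it.

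limma called 3 of the 272 origins (1.1%), 2 with a larger and 1 with a smaller fall in *rpn10Δ*. At each of the 3 the fall takes in at least 1 of the windows that limma called. These calls are therefore not independent of the window calls. In 22.4% of all origins the deletions did not overlap. The clearest was that of chromosome I at 1158 kb, at the left edge of the locus with *csn4* and *ogm1*. Its relative fall was 0.357, 0.296 and 0.292 in KK1868, KK1869 and KK1581. It was 0.111, 0.0757, 0.168 and 0.0693 in KK1901, KK1902, KK1518 and KK1517, against 0.257 in WT RFB OFF, 0.234 in WT RFB ON and 0.180 in *nup132Δ* RFB OFF. The difference was 0.209 with a standard error of 0.0291 (adjusted p 0.00752, limma). This origin was called without each library in turn except KK1868. The other 2, at 519 kb of chromosome II (0.375 ± 0.0307 in 3 *rpn10Δ* and 0.491 ± 0.0199 in 4 *nup132Δ* libraries, mean ± SD) and at 2136 kb of chromosome III as the deposited bins number it (0.349 ± 0.0233 and 0.229 ± 0.0320), had adjusted p of 0.0486 (limma). Both were lost without KK1868, KK1869, KK1581, KK1901 or KK1902. The origins on either side of the one at 1158 kb were not called. The origin at 1140 kb had a mean relative fall of 0.241 in *rpn10Δ* and 0.182 in *nup132Δ* (adjusted p 0.204, limma), and that at 1191 kb had 0.453 and 0.438 (adjusted p 0.707, limma).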

How the data were processed

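The authors mapped the Pu-Seq reads with Bowtie2 and turned them with a custom Perl script into counts per strand in bins of 300 bp. The deposited values are raw counts that were not normalized. The genome build is not given in the sources used here. The deposited bins of chromosome I and of chromosome II left of the barrier match the ASM294v3 reference by base composition, and those of chromosome II right of it are shifted by -1.9 kb, so genes were named only where the positions match. Forward counts were taken as Watson. Libraries with a mean under 10 counts per bin were not used, and Pol ε libraries were not used.

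Bins were summed into 3-kb windows. Relative share is 0.5 plus the difference between a library's share and the value of its line at a WT share of 0.5, divided by the slope of the line, which was fitted on WT RFB OFF over windows more than 50 kb from the barrier. edgeR's model had a term for each library, strand, and strand by deletion, with equal library sizes for both strands. limma used a variance trend on the mean count. Single values were tested by exact permutation of the libraries. Named windows were up to 6 in each direction for each test among those called whose deletions did not overlap, by size and at least 30 kb apart, with the windows of the barrier, *rpn10*, *nup132* and *rtf1*. Up to 4 called origins in each direction were to be named. The libraries, lists and tests were chosen with earlier results of these data known. Scripts were tested on simulated data. Same-deletion libraries differed from each other beyond sampling noise in every pair (chi-square per degree of freedom 7.98 to 26.4). Alternatives were the window size, count minimum, scaling, a term for the marker, each library left out, TMM, DESeq2, the length and position of the region at the barrier and the origin threshold. The software was Python 3.11.15, R 4.3.3, edgeR 4.0.16, limma 3.58.1 and DESeq2 1.42.0. The DNA sequence at origins is not reported here.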

Additional observations from a re-analysis of the deposited data

Results flagged for a closer look

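Of 9 sets of values over the 4 *nup132Δ* libraries, 3 had a library far from the others, where chance gives about 1 in 20. KK1901 had the highest Pol δ count ratio to WT RFB OFF, at 1.08 on the log2 scale in the first 3 kb downstream of the barrier, where the other 3 lay at 0.185 to 0.296. It also had 0.571 on that scale from 3 to 15 kb, where they lay at 0.0464 to 0.077. Without KK1901 the log2 difference of *rpn10Δ* from *nup132Δ* next to the barrier was 0.51 in place of 0.29. KK1517 had 5396348 counts, against 12065673 to 13270315 in the other 3. Without KK1517, edgeR called 17 windows in place of 11 and limma 95 in place of 35. The part of depth in this was not tested.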

How the results depend on the processing

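No paired analysis was possible because replicate numbers do not stand in the labels, which give strain numbers only. The 1 against 2 comparison of deletions with no marker named, the move of the barrier by 0.6 kb and all settings of the Pol δ count ratios were chosen after seeing the data.

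edgeR called 11 windows, and 54 among Hygro-marked deletions, 1 among those with no marker named, 5 in 6-kb windows and 29 with a term for the marker, while DESeq2 called 90. With 1 library left out it called 1 to 17. limma called 35, and 0 among deletions with no marker named, 21 with a term for the marker and 2 to 95 with 1 library left out. Of 3 called origins, 1 and 0 were left in the 2 marker classes, 8 were called with shares scaled by their own mean and SD, 7 with a line on the mean of the 7 libraries, 9 (none of the 3) at an origin threshold of 0.4, and 0 to 16 with 1 library left out. The marker classes and the settings with 1 library left out hold fewer libraries by construction, and they gave both fewer and more calls. The cause of these moves was not tested.

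The sign turned without KK1581 for genome-wide asymmetry (-0.00314), for the Watson share next to the barrier (0.0586) and for its relative excess (0.0841). Among Hygro-marked deletions it turned for the last 2 (0.0560 and 0.0762). With 1 library other than KK1581 left out the relative excess ranged from -0.143 to 0.0179, positive without KK1901 (0.00582) and without KK1517 (0.0179). Among deletions with no marker named it turned for the profile distance (-0.0190) and for the log2 Pol δ count ratios next to the barrier (-0.0533) and from 3 to 15 kb downstream (-0.0441). The other 117 alternatives kept the direction and the side of the threshold, or a count within 1.5 times, but no permutation test passed 0.05 in any setting and sizes moved widely. With 1 library other than KK1581 left out, asymmetry ranged from 0.00155 to 0.0808, the Watson share next to the barrier from -0.132 to -0.00265, the profile distance from 0.00442 to 0.0137 and the origin step from 0.00823 to 0.0156, and the origin step was 0.00740 at a threshold of 0.4. Leaving out 1 library gives 15 or 20 arrangements at most, which bounds the p.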

Other observations

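Departures from WT RFB OFF were shared between libraries in a way that did not follow the deletion alone. The relative share minus the WT RFB OFF share had an SD over 4155 windows of 0.0366 (KK1581) to 0.0694 (KK1518), against 0.0248 in WT RFB ON. Across windows, these departures had a Pearson correlation of 0.754 between KK1868 and KK1869 and of 0.847 between KK1902 and KK1518. KK1901 of *nup132Δ* had 0.593 with KK1868 of *rpn10Δ*, as high as its 0.595 with KK1902 of its own deletion. KK1517 had -0.00144 with KK1868, -0.00717 with KK1869 and 0.424 with KK1901. With the *nup132Δ* RFB OFF library the 4 *nup132Δ* libraries had 0.346 to 0.683 and the 3 *rpn10Δ* libraries 0.0899 to 0.353. All pairs share the subtracted library and the base composition of the windows, which raises the values, and windows are not independent replicates.

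Some called windows fell outside the rule for naming and are listed after their values were seen. The 2 windows of *agl1* and SPAPB1A11.06 (chromosome I, 2970 to 2976 kb) were higher in *rpn10Δ* by 0.158 and 0.134 in relative share (adjusted p 0.0374 for both, limma). The window of *slr1* and *sec72* (4386 to 4389 kb) had a difference of -0.115 (adjusted p 0.0463, limma). The window of *pmr1* (a calcium and manganese pump), *hub1* (a ubiquitin-like splicing modifier) and *pep12* had one of -0.123 (adjusted p 0.0414, limma). Without KK1581 the first 3 of these had an adjusted p of 0.0626, 0.0515 and 0.0637 (limma) and the last 0.0294 (limma). WT RFB OFF lay within the *rpn10Δ* values in the first 2 of these 4 windows and between the deletions in the last 2.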
